A study of Homo sapiens with 2 samples.

Results

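The genes described here are 6 that encode peptide hormones of the pancreatic islet: *INS*, *IAPP*, *GCG*, *SST*, *GHRL* and *NPY*. They were chosen by name, as every probe whose platform annotation carries 1 of these symbols. Each gene had a single probe, so the set holds 6 of 47323 probes and 6 of 20046 named genes. Expression was measured on 2 single-colour Illumina bead arrays, 1 for each biological replicate of the same group. Both replicates are cells of HUES8, a human embryonic stem cell line, that were carried in suspension to stage 6 of a differentiation protocol for stem-cell-derived beta (SC-beta) cells and sorted for the proteins NKX6-1 and insulin. RNA was recovered from the fixed and stained cells by MARIS. The samples come from 1 line, share every treatment and have no control arm among the arrays analysed here, so no comparison between conditions and no p-value is given.

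Islet hormones are made as precursors, cut by convertases in the secretory granule and released by separate cell types of the adult islet. Beta cells release insulin and amylin, the product of *IAPP*, alpha cells glucagon, delta cells somatostatin and epsilon cells ghrelin. Neuropeptide Y, the product of *NPY*, is best known from neurons and is also found in immature islet cells of rodents. Endocrine cells made from stem cells by early protocols are known to hold several hormones at once.

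All 6 genes have an annotated start in the RefSeq promoter table (GRCh38.p14), which for *IAPP* lists a pair of starts. The 250 bases upstream of the start are shown for *INS*, the gene whose protein was sorted for and which had the same value on both arrays, and for *IAPP* and *NPY*, which were both several-fold higher on replicate 2. For *IAPP* the window of the downstream start is shown. Each is written 5′ to 3′ on the gene's strand, and capitals mark TAAT, the core of many homeodomain binding sites, on either strand (ATTA on the other).
INS, chr11:2161210-2161459, minus strand: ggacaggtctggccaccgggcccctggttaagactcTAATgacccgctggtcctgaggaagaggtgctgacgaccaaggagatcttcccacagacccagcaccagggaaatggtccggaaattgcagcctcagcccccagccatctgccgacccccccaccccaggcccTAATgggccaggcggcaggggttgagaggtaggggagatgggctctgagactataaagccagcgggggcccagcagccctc
IAPP, chr12:21372652-21372901, plus strand: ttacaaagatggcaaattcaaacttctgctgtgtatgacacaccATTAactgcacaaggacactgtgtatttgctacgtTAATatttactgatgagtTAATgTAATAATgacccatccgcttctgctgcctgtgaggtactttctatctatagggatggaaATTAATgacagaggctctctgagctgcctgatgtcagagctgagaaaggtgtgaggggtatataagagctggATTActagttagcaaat
NPY, chr7:24283940-24284189, plus strand: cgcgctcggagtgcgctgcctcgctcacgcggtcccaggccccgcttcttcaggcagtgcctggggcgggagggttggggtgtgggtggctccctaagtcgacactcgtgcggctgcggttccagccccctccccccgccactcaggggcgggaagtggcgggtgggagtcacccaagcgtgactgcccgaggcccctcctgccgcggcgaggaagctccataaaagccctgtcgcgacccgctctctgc

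The windows differed in base composition and in the motifs they held. G and C made up 71.6% of the *NPY* window, 64.0% of the *INS* window and 40.4% of the *IAPP* window. The *IAPP* window held 8 TAAT cores, some of them overlapping, the *INS* window 2, at 214 and 81 bases upstream, and the *NPY* window 0. *GCG* and the upstream start of *IAPP* had 2 each, *SST* 1 and *GHRL* 0. At least 1 TAAT core was present in 47.4% of all 35114 windows of this length in the table, and 8 or more in 1.12%. The TATA box, searched as TATAAA on both strands, was found 30 bases upstream in *INS* and in *GCG*, again 79 bases upstream in *GCG* and 215 in *SST*, and 10.7% of all windows held it somewhere. The core of sites for MAF factors, searched as TGCTGA on both strands, was found in *INS* and at the upstream start of *IAPP*, against 14.0% of all windows. TGACGTCA, the cyclic AMP response element, which reads the same on both strands, was found 47 bases upstream of *SST* and in 1.65% of all windows. CANNTG, the E-box bound by basic helix-loop-helix factors such as NEUROD1, likewise reads the same on both strands, occurred 3 times at *GCG*, 2 times at the upstream start of *IAPP* and once each at *INS*, *SST* and *GHRL*, and is held by 61.8% of all windows. No match of 1 motif overlapped a match of another. A match is a run of letters and does not show binding, and the arrays measured no binding.

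**Figure D1:**
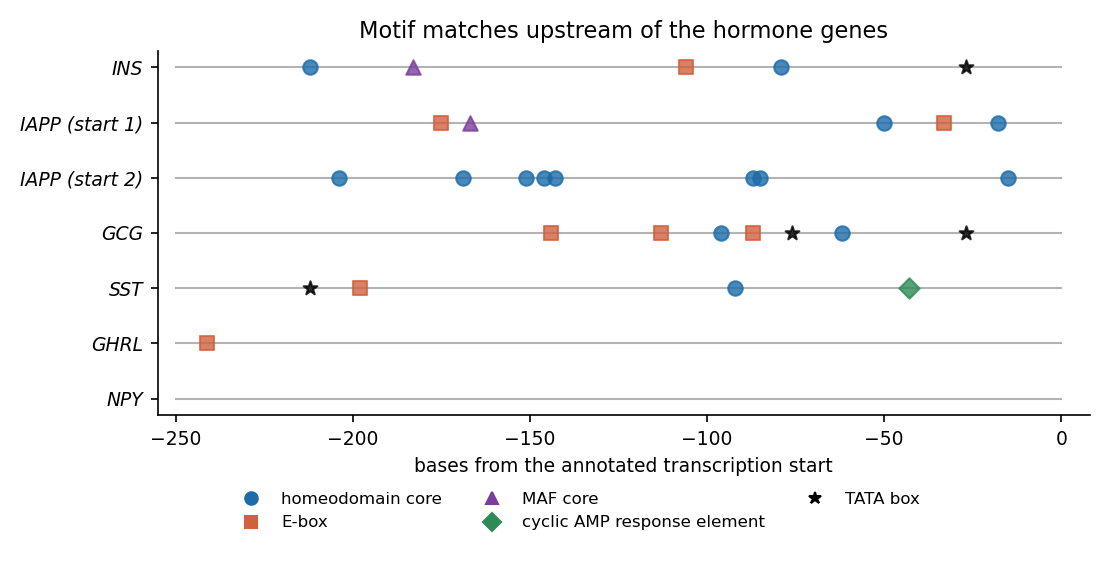
Positions of motif matches in the 250 bases upstream of each annotated start of the 6 genes, in bases from the start, with 1 symbol per kind of motif. The 8 homeodomain cores at the downstream start of *IAPP* and the absence of any match at *NPY* stand out.

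All 6 genes were above background on both arrays. Values are normalized intensities, and the background of an array was the value that 95% of its 457 olfactory receptor probes do not exceed, 18.0 on replicate 1 and 15.9 on replicate 2. By the same rule 46.9% of the 20046 named genes passed on both arrays. With those included, 51.8% passed on replicate 1 and 54.8% on replicate 2. Probes differ in how bright they are per transcript, so the intensity of 1 gene is not set against that of another.

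*INS*, which encodes preproinsulin, had an intensity of 16501 on both arrays. It was the probe with rank 6 from the top on each, between values of 16678 and 16267 for the neighbouring ranks. The arrays share 1 distribution of values, so equal ranks give equal values, and the highest value of any probe was 18514. A rise of *INS* on replicate 2 could therefore have shown as 1.12-fold at most. The SD of 0 between the replicates is for that reason a statement about rank. *INS* shares its annotated start with *INS-IGF2*, a read-through gene, and the upstream windows were identical. The 2 probes of *INS-IGF2* gave 118 and 25.3, and -15.5 and -17.7, on replicates 1 and 2, and only the first was above background on both arrays.

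*IAPP*, which encodes the amylin precursor, had 273 on replicate 1 and 2107 on replicate 2. Both values were far above background, at 15.2 and 133 times it, and replicate 2 was the high array by 7.71-fold (log2 difference 2.95). *NPY* had 66.1 on replicate 1 and 658 on replicate 2, or 3.67 and 41.5 times background. Replicate 2 was again the high array, by 9.96-fold (log2 difference 3.32). These are 2 of 6 hormone genes that were 2-fold or more higher in replicate 2, beside 13.5% of the 9393 named genes above background, and 0 of 6 were 2-fold or more lower, beside 10.9%. Only 10 of the 9393 genes, *IAPP* included, had a difference as high as that of *IAPP*, and 5, *NPY* included, one as high as that of *NPY*. Probes of like brightness, with a mean within 1 log2 unit, had an SD of the difference of 0.88 around *IAPP* (2363 probes) and of 1.00 around *NPY* (4934 probes). Each replicate is 1 array and each gene 1 probe, so neither difference has a replicate check.

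*GCG*, which encodes the precursor of glucagon and of the glucagon-like peptides, had 4606 on replicate 1 and 6346 on replicate 2. *SST*, which encodes preprosomatostatin, had 1924 and 3028. *GHRL*, the ghrelin precursor gene, had 83.3 and 88.6. All were a little higher on replicate 2, with log2 differences of 0.46, 0.65 and 0.09, each smaller than the SD among probes of like brightness (0.71 for *GCG*, 0.80 for *SST* and 1.07 for *GHRL*). A difference as high as that of *GCG* was found in 36.6% of the genes above background, and one as high as that of *SST* in 26.7%. *GHRL* turned to -0.12 when a trend with brightness was removed, so its direction was not settled. In all 5 of 6 genes were higher on replicate 2 and *INS* was equal, and the median difference of the 6 was 0.56. Over all 9393 genes 60.9% were higher on replicate 2, with a median of 0.21. In RNA from a sorted population, fewer cells that hold a hormone and less of its RNA per cell cannot be told apart.

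**Figure D2:**
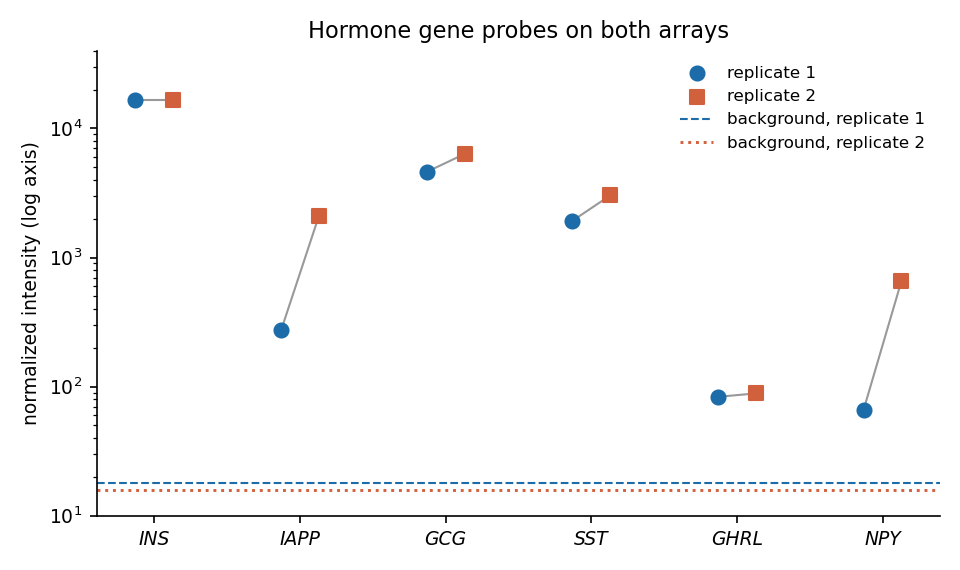
Normalized intensity (log axis) of the single probe of each hormone gene on replicate 1 (circles) and replicate 2 (squares), with the background of each array as a broken line. *IAPP* and *NPY* lie 7.71-fold and 9.96-fold higher on replicate 2, while the values of each of the other 4 genes lie within 1.57-fold of each other.

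**Figure D3:**
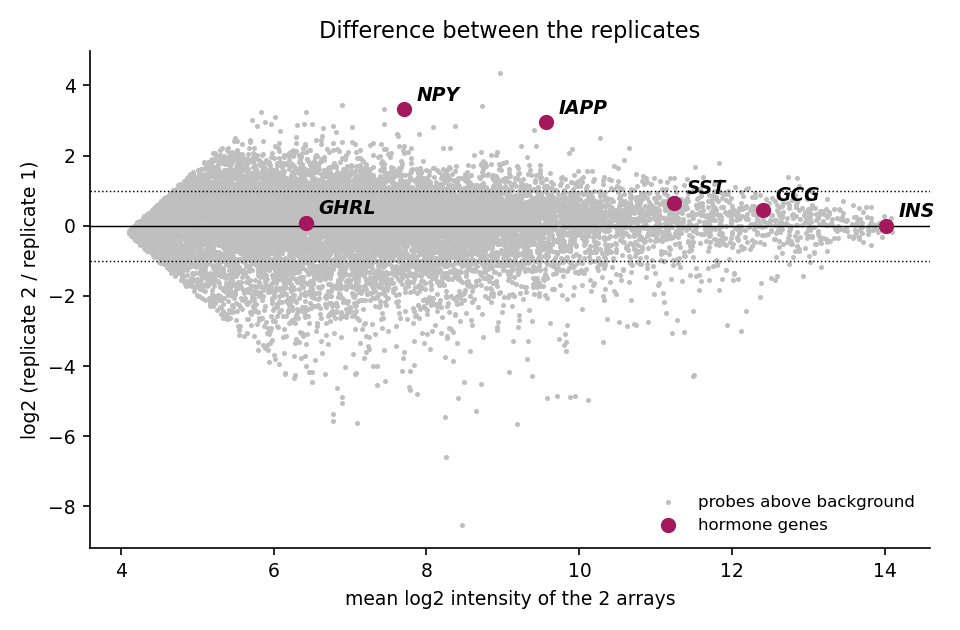
Log2 difference of replicate 2 over replicate 1 against mean log2 intensity for the 14205 probes above background on both arrays (grey) and for the 6 hormone genes (named). Dotted lines mark a 2-fold difference. *NPY* and *IAPP* lie near the upper edge of the cloud and the other hormone genes within it.

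The list of prohormone processing genes holds enzymes that mature peptides, a chaperone and an inhibitor of convertases, and peptidases that degrade peptides. Of its 16 measured genes 11 passed on both arrays, beside 46.9% of all named genes. The median difference of these 11 was -0.16 on the log2 scale, beside 0.21 over all genes. *CPE*, the carboxypeptidase that trims basic residues after cleavage, had 1137 on replicate 1 and 2353 on replicate 2. *PAM*, the enzyme that amidates amylin and neuropeptide Y, had 447 and 1160. *SCG5*, which encodes the chaperone 7B2 of the convertase PC2, had 6831 and 10353. These 3 were higher on replicate 2, *CPE* and *PAM* by more than 2-fold (log2 differences 1.05 and 1.38). *PCSK1N*, which encodes the convertase inhibitor proSAAS, had 1045 and 256 and was lower on replicate 2 (-2.03). *QPCT*, glutaminyl cyclase, had 550 and 249 at 1 of its 2 probes and was also lower (-1.14). *MBOAT4*, the acyltransferase that makes ghrelin active, had -3.65 and -5.20 and was not above background on either array, although *GHRL* was on both. Among peptidases that degrade these hormones, *DPP4*, which inactivates glucagon-like peptides, had 171 and 111, and *MME*, neprilysin, had 865 and 897 at 1 of 4 probes. *IDE*, the insulin-degrading enzyme, had 6.67 and 21.5 and was above background on replicate 2 only. The convertases *PCSK1* and *PCSK2* had no named probe and were not analysed here.

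Among receptor genes for the 6 hormones, 5 of the 20 measured passed on both arrays, beside 46.9% of all named genes. The median log2 difference of these 5 was 0.09. *SSTR2* and *SSTR1*, receptors for somatostatin, had 1167 and 2983, and 292 and 203, on replicates 1 and 2. *GCGR*, the glucagon receptor, had 615 and 153, a log2 difference of -2.01, beside 0.46 for *GCG* itself. *RAMP1* and *RAMP2*, which join the calcitonin receptor to form amylin receptors, had 103 and 109, and 36.3 and 46.3. *CALCR*, the calcitonin receptor, had -1.25 and 10.4 and was not above background on either array. The same was true of *INSR* (-2.50 and -0.860), *GLP1R* (-8.86 and -11.3), *GHSR*, the ghrelin receptor (-2.27 and -2.61), and the neuropeptide Y receptors *NPY2R* and *NPY4R*. *NPY1R* had 15.6 and 41.3 and passed on replicate 2 only, and *SSTR3* had 45.8 and -2.36 and passed on replicate 1 only. A value under background gives only an upper bound for what that probe measured.

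**Figure D4:**
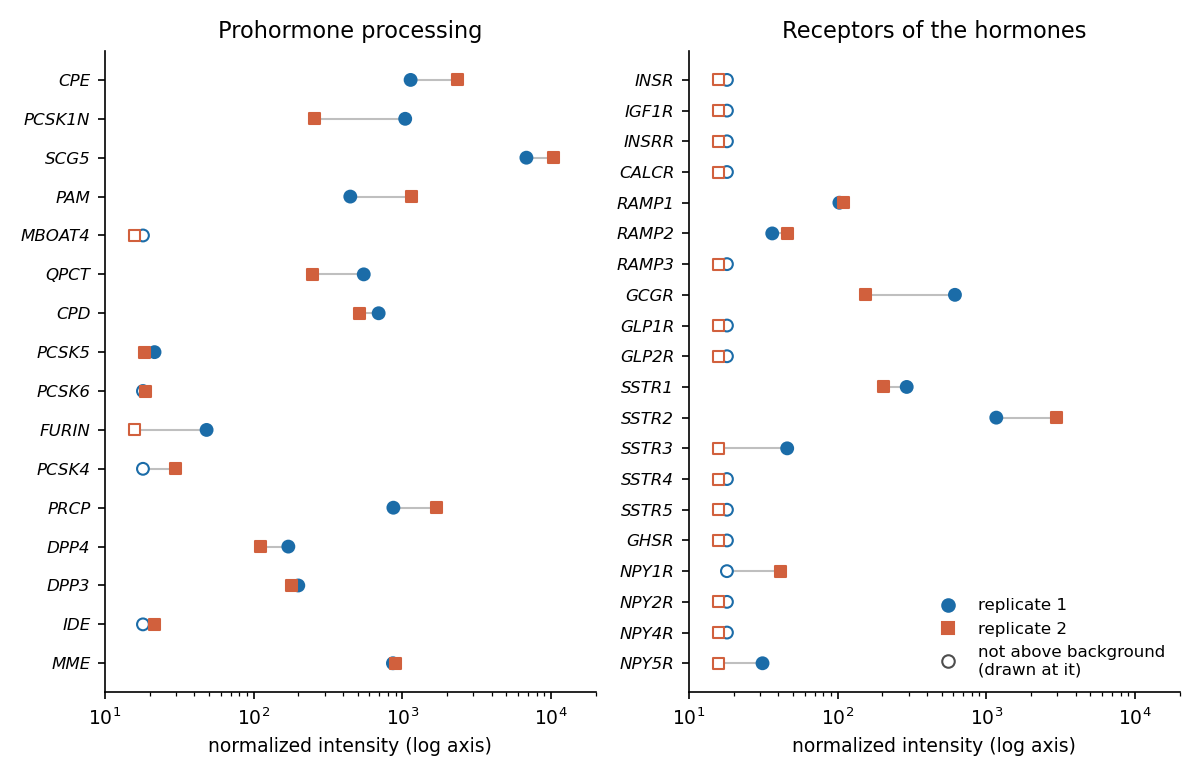
Normalized intensity (log axis) of each measured gene for prohormone processing or peptide degradation (left) and of each receptor gene (right). Each gene is given at its brightest probe, on replicate 1 (circles) and replicate 2 (squares). Open symbols are values not above background, drawn at it. *SCG5* reaches 10353 on the left, while most receptors sit at background on both arrays.

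Few other peptide hormone and neuropeptide genes accompanied the 6. Of 46 measured, 12 (26.1%) passed on both arrays, beside 46.9% of all named genes. On replicate 1 there were 15 and on replicate 2 22, those on both arrays included. *LEP*, leptin, had 990 and 1191 at 1 of 2 probes and *ADM*, adrenomedullin, 227 and 772. *NTS*, neurotensin, had 38.5 and 140 at 1 of 2 probes, *GAL*, galanin, 110 and 93.6, *UCN*, urocortin, 97.1 and 23.2 at 1 of 2 probes, and *MLN*, motilin, 72.7 and 53.8 at 1 of 2 probes. *GAST*, gastrin, which is made in the fetal pancreas, had 30.6 and 31.0. Some genes passed on 1 array only, such as *PYY*, the gut relative of *NPY*, with 53.9 and 6.45, *CCK* with 5.69 and 82.8, and *CRH* with -0.922 and 116. *PPY*, the hormone of PP cells, had no named probe and was not analysed here. Of the 12 genes on both arrays, 2 were 2-fold or more higher on replicate 2 (*NTS* and *ADM*) and 4 lower, with a median log2 difference of -0.33. *IAPP* and *NPY* differed in the opposite direction from this median, which leaves out every gene above background on 1 array only. The intensities of all 46, values under background included, summed to 2168 on replicate 1 and 3059 on replicate 2.

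Transcription factors known to act on the hormone genes were detected in 17 of 21 cases. *PDX1*, an activator of *INS*, *IAPP* and *SST*, had 2036 and 3079 at 1 of 2 probes. *ISL1* had 3007 and 4140, *NKX2-2* 2973 and 2921, *INSM1* 3799 and 5650, and *PAX6*, which also activates *GCG*, 608 and 449. *PAX4*, known in the mouse to repress *GCG* and *GHRL*, had 894 and 416, a log2 difference of -1.11. *TCF3*, with 253 and 71.9, was the other factor that was 2-fold or more lower on replicate 2. The 2 that were 2-fold or more higher there were *FOXA1* with 420 and 849 and *RFX6* with 230 and 509. *MAFA*, an activator of *INS*, did not pass on either array, with 3.46 and 1.34. The single probe of *NKX6-1*, which encodes the other protein of the sort, had 78.9 on replicate 1 and -4.24, under background, on replicate 2. *NEUROD1* had no named probe and was not analysed here. The median difference of the 17 was -0.03.

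Markers of the cell types that release each hormone were counted without the hormones themselves, beside the 46.9% of all named genes that passed on both arrays. Summed intensities run over the brightest probe of every measured gene of a list, values under background included, and serve only to set the arrays side by side. Of the 12 alpha cell markers measured 10 passed on both arrays, with a summed intensity of 31653 on replicate 1 and 40040 on replicate 2. *TTR*, transthyretin, had 14789 and 17783, *CRYBA2* 12811 and 15165, *LOXL4* 2578 and 5143, and *IRX2*, a transcription factor of alpha cells, 138 and 170. Others of the list were lower on replicate 2, *SMIM24* with 81.2 and 33.7, *DPP4* with 171 and 111 and *IRX1* with 64.7 and 60.6, and *FAP* and *POU3F4* were not above background on both. Of the delta cell markers 3 of 9 were above background, with sums of 157 and 337. These were *CASR* with 62.0 and 51.9, *UNC5B* with 22.6 and 16.6 at 1 of 2 probes, and *LY6H* with 26.8 and 30.6, none of them 2-fold apart. *HHEX*, which maintains the delta cell state in mice, had 5.33 and 28.1, *LEPR* 5.54 and 105 and *RBP4* 7.32 and 50.6, each above background on replicate 2 only. Of the epsilon and PP cell markers 4 of 10 were above background, with sums of 3990 and 6933. The brightest was *STMN2* with 2196 and 4365. The others were *SPINK1* with 1383 and 2134, *ACSL1* with 220 and 194 and *MEIS2* with 169 and 170 at 1 of 4 probes. Of the beta cell markers 7 of 14 were above background, with sums of 18466 and 18361. This count, like that of the epsilon and PP cell markers, is near the share of all named genes. Among the beta cell markers *G6PC2* had 668 and 1976 at 1 of 3 probes (log2 difference 1.57), *DLK1* 6652 and 2615 (log2 difference -1.35) and *SLC30A8* 2756 and 2412. *UCN3* and *SLC2A2* were not above background on either array. The part of these cell types in the hormone values was not tested.

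Markers of other lineages were set beside the values of *NPY* and *IAPP*, and their counts beside the same 46.9% of all named genes. Of the neuronal markers 8 of 11 were above background on both arrays. Their summed intensity was 4011 on replicate 1 and 6624 on replicate 2, and *NEFM* made up most of it on each array. *GAP43* had 21.8 and 97.5, *SNAP25* 401 and 1088 at 1 of 2 probes and *SLC17A6* 230.5 and 570, all more than 2-fold higher on replicate 2. *NEFL* had 196 and 336 and *NEFM* 2731 and 4270, higher by less than 2-fold. *SYP* had 170 and 160 and *ELAVL4* 70.5 and 52.1, slightly lower there. *TH*, tyrosine hydroxylase, had 189 and 38.2 and was lower there by more than 2-fold, *DBH* passed on neither array, and *PHOX2A* passed on replicate 2 only. The part of neuronal cells in the difference at *NPY* was not tested. All 9 enterochromaffin cell markers were above background, with sums of 26334 and 27398. *CHGA*, with 16678 and 16892, made up most of both sums and is also expressed by islet endocrine cells. *MNX1* was also on the list of transcription factors of the hormone genes. *TPH1*, the enzyme that starts serotonin synthesis, had 71.7 and 275 and was the only 1 of the 9 that was 2-fold or more higher on replicate 2. *DDC* had 5447 and 5760, *FEV* 911 and 1457, *LMX1A* 882 and 1294 and *SLC18A1* 382 and 555, each higher on replicate 2 by less than 2-fold. *TAC1* had 87.6 and 41.8 at the brightest of its 3 probes, *ADRA2A* 850.0 and 499 and *MNX1* 1024 and 624, each lower there. Duct cell markers passed in 5 of 7 cases, with sums of 1381 and 1487. *CFTR* had 29.3 and 216, *ANXA4* 61.6 and 123 and *SOX9* 31.2 and 51.3, each higher on replicate 2. *MUC1* had 219 and 103 and *KRT19* 1022 and 926, both lower there. Acinar markers passed in 1 of 11 cases, with sums of 204 and 286. Pluripotency markers passed in 1 of 8, with sums of 56.6 and 583. *L1TD1*, with 15.1 and 443, made up most of that sum on replicate 2, while *ZFP42*, the marker that passed, had 47.1 and 42.9. Mesenchymal, endothelial and blood markers passed in 2 of 12, with sums of 1000.2 and 675. *CD68*, with 962 and 480, made up most of that sum on each array, and *COL1A1*, the other that passed, had 18.8 and 20.1. With each array taken by itself, 7 of those 12 passed on replicate 2, among them *COL3A1* with 12.3 and 76.6. *PRSS1* and *NANOG* were not above background on either array. The part of these cells in the hormone values was not tested either.

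**Figure D5:**
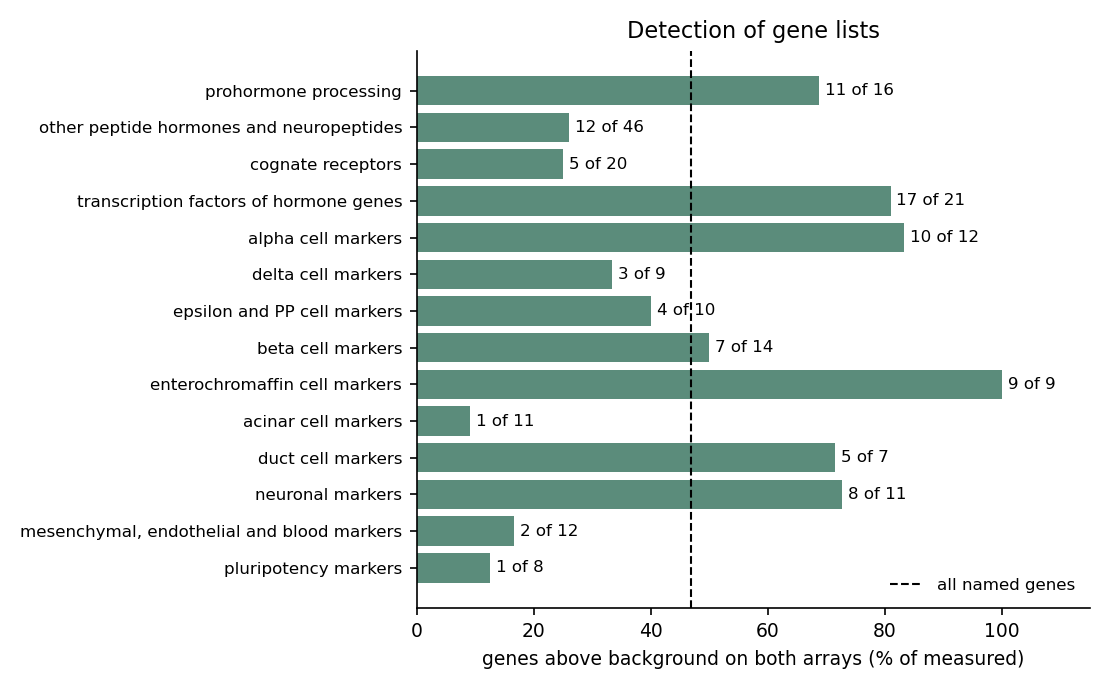
Share of measured genes above background on both arrays in each list, leaving out the 6 hormone genes, with the counts written beside the bars. The broken line marks the 46.9% of all named genes that were above background. The lists of enterochromaffin (9 of 9), alpha cell (10 of 12), neuronal (8 of 11) and duct cell markers (5 of 7) lie above it. So do transcription factors (17 of 21), prohormone processing genes (11 of 16) and, by a little, beta cell markers (7 of 14). The other lists, among them receptors (5 of 20) and acinar markers (1 of 11), lie below.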

How the data were processed

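Per the labels, RNA of both samples was biotin-labelled after TotalPrep amplification. The deposited table gives each probe a linear intensity on each array. GenomeStudio is named in the submitters' processing notes, and its version is not given in the sources used here. Per the series design text, the arrays were normalized together with published arrays that are not analysed here. The deposited values reach down to -22.6, and both arrays, once sorted, held the same values to within 0.155, as background subtraction and quantile normalization would leave them, though no label describes either step. No detection p-value was used, and the number of arrays limits the precision.

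Gene names came from GEO's platform annotation. Of 47323 probes, 30113 had 1 gene, 8 had several, and 17202 were unlisted; only those with 1 are named. Through their Entrez identifiers, 30074 probes took the current RefSeq symbol. Values under the background of an array were set to it before log2 was taken. A gene with several probes is given at its brightest one by mean log2 value, from probes above background where there were any. A gene counted as above background if any of its probes was so on both arrays. With 1 array per replicate and 1 group, no test was possible, and since a correlation over 2 arrays is always 1 or -1, no genes were named for a pattern like that of a hormone gene. Of 213 listed genes, 197 had a named probe. Every hormone probe is named. A rule set which genes of the lists could be named, and not all of those are named here. It allowed any measured gene of the processing, peptide hormone, receptor, transcription factor and islet cell lists. Of the other lists it allowed the leading 4 and the detected genes. The members and lists were chosen with earlier results of these data known. Promoter windows are the 250 bases before each start in a RefSeq table, and those 35114 with only A, C, G and T were searched. Other settings tried were 3 other backgrounds, each array alone, the median probe, centring, an offset of 50, a second quantile normalization and a lowess trend. Python 3.11.15, pandas 2.3.3 and statsmodels 0.14.6 were used, and the calling steps were tested on simulated data.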

Additional observations from a re-analysis of the deposited data

How the results depend on the processing

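All 6 hormone genes stayed above background under the 3 other backgrounds and on each array alone, and the counts of 2 genes higher and 0 lower by 2-fold were the same under the 7 alternatives tried for the difference. The 3 other backgrounds and the second quantile normalization could not move these differences, since all 6 probes lie above every background and the arrays already share 1 distribution. Over the 7 the log2 difference ranged from 2.74 to 2.95 for *IAPP*, from 2.61 to 3.32 for *NPY*, from 0.39 to 0.46 for *GCG*, from 0.55 to 0.65 for *SST*, from -0.12 to 0.09 for *GHRL* and from -0.05 to 0 for *INS*. The low end for *NPY* came with an offset of 50, which shrinks differences of dim probes. The counts of small lists moved more. Here delta markers are counted with *SST*, 4 of 10 in place of 3 of 9. With the 90th percentile background 2 acinar, 4 mesenchymal, endothelial and blood, and 2 pluripotency markers passed. With the 99th percentile 2 delta, 3 duct and 1 mesenchymal, endothelial and blood markers passed. With the background from keratin-associated and taste receptor probes 2 acinar markers passed. With the median probe 2 delta and 0 acinar markers passed. On single arrays the counts ran from 15 to 22 for other peptide hormones, 4 to 8 for delta, 1 to 4 for acinar and 2 to 7 for mesenchymal, endothelial and blood markers, and 3 pluripotency markers passed on each. A lower background, or 1 array in place of both, lets more genes pass by construction. No paired analysis was possible because the arrays form 1 group. Probes near background carry the least certain values, and the single probe per hormone gene cannot be checked against another.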

Other observations

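Values of genes that lie next to the hormone genes in the RefSeq table were looked up, and those described here were chosen after their values were seen. Most probes of the neighbours of *INS* were lower on replicate 2, while *INS* had the same value on both arrays. *TH* had 189 and 38.2, and 176 and 29.4, at its 2 probes on replicates 1 and 2. *ASCL2*, a transcription factor gene of the same chromosome arm, had 1879 and 582. The 3 probes of *IGF2*, a fetal growth factor gene, had 74.0 and 0.289, 30.2 and 6.46, and -8.91 and -5.96, and none was above background on replicate 2. With 1 array per replicate these values have no replicate check.

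*GCG* lies between *DPP4* and *FAP*, which encode related peptidases and which were both on the list of alpha cell markers. *DPP4* had 171 and 111 and *FAP* -0.554 and 16.9, while *GCG* had 4606 and 6346. *L1TD1*, on the list of pluripotency markers, had 15.1 and 443 and was above background on replicate 2 only, whereas *NANOG* had -6.77 and 8.66 and was not above background on either array.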
